A study of Caenorhabditis elegans with 79 samples.

Results

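The experiment measured which 26G-RNAs, small RNAs that begin with G and are made antisense to mRNAs, were recovered with the Argonaute protein ALG-3 from Caenorhabditis elegans larvae that lack rde-4 function. It comprises 4 of the 79 small RNA libraries of the series. These are 2 co-immunoprecipitates (co-IPs) of GFP::ALG-3 and 2 inputs (RNA from the cell lysate) from L4 larvae that combine the mutation rde-4(syb6665) with the tagged allele alg-3(tor141[GFP::3xFLAG::alg-3]), called rde-4 here. They were read beside 2 co-IPs and 2 inputs from L4 larvae that carry the same tag on alg-3 and wild-type rde-4, called wild type here. All 8 libraries carry the tagged allele, none was given a treatment, and none comes from an untagged strain, so recovery that does not depend on ALG-3 was not measured. A further table of untagged L4 larvae, 3 libraries of N2 (the wild-type strain) and 3 of rde-4(syb6665) taken at 54 h, was used as another readout of the same genes. The labels do not give the hour at which the GFP::ALG-3 larvae were taken, so tagged and untagged larvae may differ in age. The labels do not say whether replicates came from separate cultures, so p-values measure the spread between these libraries.

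In the C. elegans germ line, 26G-RNAs are primary siRNAs. They are made from mRNA templates by the RNA-dependent RNA polymerase RRF-3 together with Dicer, and those of the spermatogenic germ line are bound by the closely related Argonautes ALG-3 and ALG-4. Their targets are in turn templates for secondary siRNAs, the 22G-RNAs, which are bound by other Argonautes such as CSR-1 and the WAGO proteins. RDE-4 is a double-stranded RNA-binding protein that acts with Dicer. L4 hermaphrodites make sperm, the stage at which ALG-3 is known to be present. The comparison asks which genes still had 26G-RNAs with ALG-3 when rde-4 was mutant.

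The table holds 1386 genes, all of 1 class of antisense 26G-RNA that the authors named for the ALG Argonautes, in RPM (reads scaled to the depth of the library). Of these, 1374 are protein-coding, and the WBcel235 annotation places 345 on chromosome IV, 311 on I, 269 on II, 247 on III and 212 on V. The X chromosome, which carries 2731 annotated protein-coding genes, held 1. The table has no row for rde-4 itself, and small RNA libraries do not measure its mRNA, so the genotype could not be checked there. Genes of muscle, gut, neurons and skin that were listed as markers of other tissues had no row. Depth read from the steps between low values was 11.6 and 13.2 M reads in the rde-4 co-IPs and 16.9 and 21.7 M reads in the rde-4 inputs, and the median gene had 22 and 27 reads in the inputs. Over the genes tested, replicates correlated at r = 0.871 in the rde-4 co-IPs, the least even pair, and at 0.951 to 0.979 in the other groups.

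Summed over all genes, 26G-RNAs amounted to 11903.5 and 12213.5 RPM in the rde-4 co-IPs. The rde-4 inputs held 2924.2 and 2863.4 RPM. In the wild type, the co-IPs held 166565.9 and 171775.6 RPM and the inputs 17124.2 and 20751.3 RPM. Without rde-4 the pool with ALG-3 was thus 7.13% of that in the wild type, the input pool was 15.3%, and neither pair of groups overlapped. The co-IP still held 4.17 times the level of its own input, against 8.93 times in the wild type. With 2 libraries against 2, the exact two-sided permutation test cannot go below p = 0.333, and each of these comparisons gave that value.

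**Figure D1:**
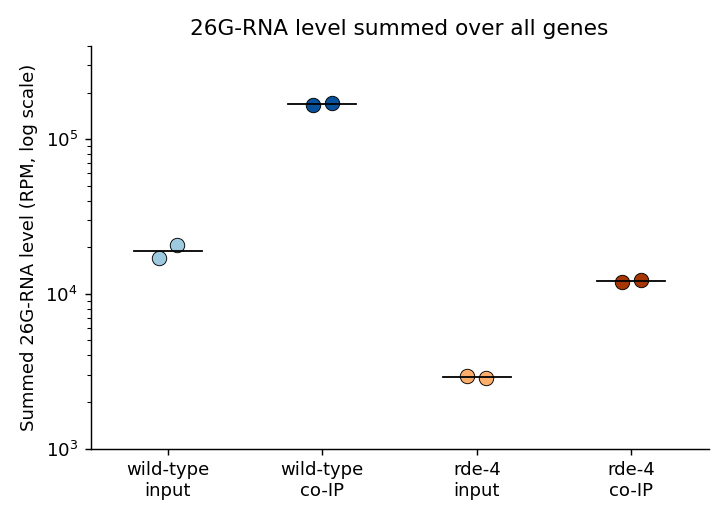
Level of 26G-RNAs summed over the 1386 genes (RPM, log scale) in each library, with a line at the mean of each group (n = 2). The rde-4 co-IPs lie above the rde-4 inputs and below both groups of the wild type.

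The residual 26G-RNAs were enriched with ALG-3 at most genes. Tests covered the 1101 genes whose mean over the 8 libraries reached 10 RPM. Of these, 989 (89.8%) differed between co-IP and input in rde-4, of which 962 (87.4% of those tested) were higher in the rde-4 co-IPs than in the rde-4 inputs and 27 (2.45%) were lower (limma on log2(RPM + 1), Benjamini-Hochberg adjusted p under 0.05). The median difference was 1.59 on the log2(RPM + 1) scale. Among the wild-type libraries, 1096 genes (99.5%) were higher, 2 (0.182%) were lower, and the median was 2.96. All 962 genes called higher in rde-4 were also called higher in the wild type, an overlap near the 99.5% of all genes tested. Most of the 1101 genes passed the minimum through the wild-type co-IPs, which favoured higher calls in the wild type. Over the rde-4 libraries alone 162 reach 10 RPM, and of these 148 were higher and 10 lower. The median rde-4 input was 1.46 RPM, so that minimum was met mainly through the rde-4 co-IPs, which favoured higher calls in rde-4. The 285 genes under the minimum had rde-4 co-IP means between 0 and 7.97 RPM, and 220 of them had a co-IP mean above the input mean.

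RPM values are shares of a library, so a co-IP in which the whole pool is larger raises every gene. When all libraries were scaled to the same 26G-RNA total, 497 genes passed the minimum, the median in rde-4 moved from 1.59 to 0.34, and 219 genes were higher and 117 lower than the pool. The median in the wild type moved from 2.96 to -0.02, with 88 genes higher and 118 lower.

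The gene with the highest 26G-RNA level in the rde-4 co-IPs was W03G1.2, a protein-coding gene on chromosome IV (WBcel235, 524652 to 526491, plus strand). Its rde-4 co-IPs held 233 and 189 RPM and its rde-4 inputs 22.7 and 17.4 RPM. The wild-type co-IPs held 236 and 227 RPM and the wild-type inputs 18.4 and 24.96 RPM. The co-IPs of both strains thus overlapped, as did the inputs, and in both strains the co-IPs lay far above the inputs. The rde-4 co-IP mean was 91.4% of the wild type, with a log2 difference of -0.14 ± 0.18 (SE, limma adjusted p = 0.461). Its enrichment over input was 3.34 ± 0.18 on the log2 scale in rde-4, and the difference in enrichment between strains was -0.03 ± 0.26 (SE, limma adjusted p = 0.913). Relative to the pool, at equal totals, its co-IP level was higher in rde-4 by 3.61 and its enrichment by 1.09 on the log2 scale (limma adjusted p = 5.6e-09 and 0.0033). In the wild-type co-IPs the gene ranked 176, and in the rde-4 co-IPs it ranked 1.

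C49C8.1 and K05F1.8 ranked next in rde-4, and they are the 2 highest genes of the wild-type co-IPs. C49C8.1 (chromosome IV, 8654578 to 8656831, plus strand) had 178 and 158 RPM in the rde-4 co-IPs and 11.97 and 13.2 RPM in the rde-4 inputs, against 2582 and 2432 RPM in the wild-type co-IPs. K05F1.8 (chromosome II, 5799316 to 5799653, minus strand) had 154 and 169 RPM in the rde-4 co-IPs, 8.85 and 9.29 RPM in the rde-4 inputs, and 2035 and 2339 RPM in the wild-type co-IPs. Both therefore kept a high rank at about the loss of the whole pool, with 6.71% and 7.38% of the wild-type co-IP level left. On the log2(RPM + 1) scale K05F1.8 showed the largest enrichment of any gene called in rde-4, 4.01 ± 0.15 (SE, limma adjusted p = 7.4e-11). By the ratio of means, 17.8, it was not the highest: that gene was F22B3.8, with 6.2 and 2.95 RPM in the rde-4 co-IPs and 0.12 and 0.09 RPM in the rde-4 inputs, the latter under the level of 3 reads (0.177 and 0.138 RPM).

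The genes sulp-6 and C01G5.3 were closer to W03G1.2 in how much was left. The first encodes a member of the sulfate permease family of anion transporters (chromosome I, 3287336 to 3293171, plus strand). It had 86.2 and 107 RPM in the rde-4 co-IPs, 14.8 and 15.8 RPM in the rde-4 inputs, and 229 and 240 RPM in the wild-type co-IPs. C01G5.3 (chromosome IV, 6536208 to 6537671, plus strand) had 109 and 60.3 RPM in the rde-4 co-IPs, the widest spread among the leading genes, and 4.90 and 5.02 RPM in the rde-4 inputs. Its wild-type co-IPs held 275 and 222 RPM. The rde-4 co-IP level was 41.2% of the wild type for sulp-6 and 34.0% for C01G5.3, and each difference passed the test (log2 -1.28 ± 0.16 and -1.60 ± 0.25, SE, limma adjusted p = 8.7e-07 and 1.7e-05). At equal totals both lay above the pool, by 2.47 and 2.15 on the log2 scale.

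The other genes among the 12 with the highest rde-4 co-IP level were F35E2.5, C51E3.10, F10G7.12, F49F1.12, C17H12.5, irld-6 and Y38F1A.1. The gene irld-6 belongs to a worm family with receptor L domains like those of the insulin and EGF receptors. At all 12, both rde-4 co-IPs lay above both rde-4 inputs, and the ratio of the means ran from 6.32 to 17.8. The choice by co-IP level favoured this, and 995 of the 1101 genes tested also had both co-IPs above both inputs. Between 6.50% (F10G7.12) and 91.4% (W03G1.2) of the wild-type co-IP level was left. Of the 50 genes with the highest level in each strain's co-IPs, 20 were in both lists.

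**Figure D2:**
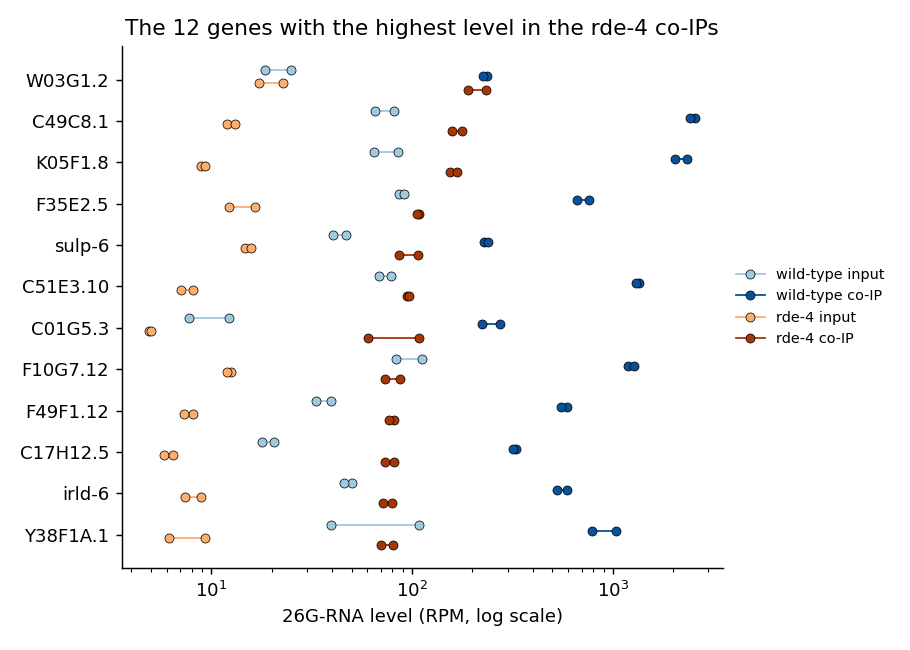
Level of 26G-RNAs (RPM, log scale) in each of the 8 libraries for the 12 genes with the highest mean in the rde-4 co-IPs; 2 joined points of 1 colour are the 2 replicates of a group. For W03G1.2 the co-IPs of both strains overlap, while for C49C8.1 and K05F1.8 the rde-4 co-IPs lie at 154 to 178 RPM and the wild-type co-IPs at 2035 to 2582 RPM.

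On the log2(RPM + 1) scale, the largest enrichments in rde-4 otherwise belonged to genes that also led in level, except ZK945.6 and ptp-5.1, a member of the protein tyrosine phosphatase family. ZK945.6 had 56.6 and 60.8 RPM in the rde-4 co-IPs against 3.72 and 3.36 RPM in the inputs, a log2 enrichment of 3.72 ± 0.16 (SE). The gene ptp-5.1 had 59.5 and 44.3 RPM against 3.97 and 4.49 RPM, a log2 enrichment of 3.32 ± 0.18 in rde-4 and 3.36 in the wild type. Its enrichment differed between strains by -0.03 ± 0.25 (SE, limma adjusted p = 0.903), and by 1.28 at equal totals (limma adjusted p = 0.0020), while its co-IP level in rde-4 was 16.6% of the wild type.

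Against the wild-type co-IPs, 1098 of the 1101 genes were lower in the rde-4 co-IPs (99.7%) and 0 were higher by limma; 1098 had an unadjusted p under 0.05. The median gene kept 6.91% of its wild-type co-IP level, the middle 90% of genes kept between 1.85% and 19.4%, and 287 genes kept at least 10%. Since the minimum of 10 RPM was met mainly through the wild-type co-IPs, a fall was built into most of these genes. At equal totals, 133 genes were higher and 141 lower than the pool, with a median of -0.04 against -3.67. Between inputs, 1073 genes (97.5%) were lower in rde-4 and 0 were higher, with 1074 at an unadjusted p under 0.05.

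Only 16 of the 1101 genes kept at least 25% of the wild-type co-IP level. Of these, 11 were enriched with ALG-3 in rde-4, 4 were lower in the co-IP than in the input and 1, ani-1 (anillin, a cytokinesis protein), was not called. Over all genes tested, 87.4% were higher and 2.45% lower. The 16 were chosen in part by the rde-4 co-IP level, which also enters these calls. The 11 enriched genes were W03G1.2, sulp-6, Y38H8A.2, F23C8.8, C01G5.3, C25G4.8, nep-3 (a neprilysin-like peptidase), F41H10.5, erh-1 (the enhancer of rudimentary homologue), cope-1 (a coatomer subunit) and lin-33. Only 3 genes kept at least 50%. Besides W03G1.2 these were C04G2.10 and F55A11.13, which were lower in the co-IP than in the input in both strains. C04G2.10 had 10.9 and 15.2 RPM in the rde-4 co-IPs and 5.61 and 12.2 RPM in the wild-type co-IPs, against 21.6 and 19.97 RPM in the rde-4 inputs.

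At the other end, 62 genes kept under 2%. Among the 100 genes with the highest wild-type co-IP level, W08E3.4 fell most. It had 6.81 and 2.64 RPM in the rde-4 co-IPs against 724 and 683 RPM in the wild-type co-IPs, which is 0.672% (log2 -7.04 ± 0.27, SE, limma adjusted p = 3.7e-12). F14H8.8, F59A6.2, Y49E10.10 and Y39E4B.13 followed, with 0.782% to 1.28% left. The 5 smallest falls in the same 100 genes were at C17H12.5, ptp-5.1, C15H7.3, M04G7.2 and F35E2.5, with 14.97% to 23.8% left. At equal totals all 5 turned to higher than the pool in rde-4, by 1.06 to 1.70 on the log2 scale. This follows from their choice, since each kept more than the 7.13% left of the whole pool. ZK930.4 and ZK666.8, ranked among the 5 highest genes of the wild-type co-IPs, kept 1.73% and 2.28%, in contrast to 7.18% at C51E3.10 from the same 5.

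**Figure D3:**
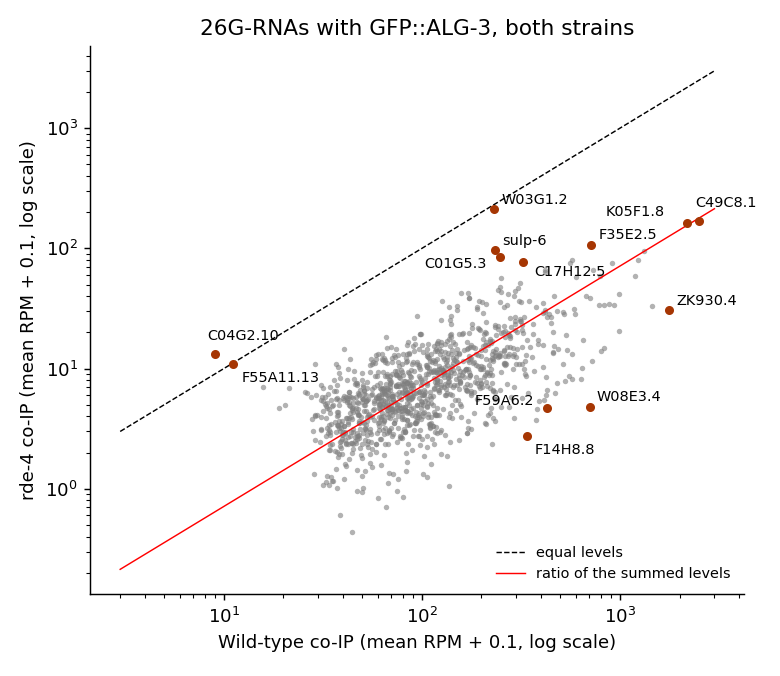
Mean 26G-RNA level in the wild-type co-IPs (x axis) and the rde-4 co-IPs (y axis), each as RPM + 0.1 on a log scale, for 1101 genes (n = 2 per group). The dashed line marks equal levels and the red line the ratio of the summed levels, 7.13%; W03G1.2, C04G2.10 and F55A11.13 lie at or near the dashed line, and W08E3.4 lies farthest below the red line among the labelled genes.

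The 26G-RNAs that were lower with ALG-3 than in the input belonged to 27 genes. All 27 genes had both rde-4 co-IPs below both rde-4 inputs, and the ratio of the means ran from 0.226 to 0.706. Their median rde-4 input level was 11.2 RPM, against 1.46 RPM over all genes tested, and ranged from 2.13 to 34.4 RPM; a high input is in part fixed by the choice of genes whose input exceeds the co-IP. Their input level in rde-4 was 69.6% of the wild-type input at the median, against 12.2% over all genes tested. With wild-type rde-4, 22 of the 27 were called higher in the co-IP and 2 were called lower in both strains. At equal totals, 22 of the 27 passed the minimum and all 22 were lower than the pool, against 109 of 489 among the genes tested. The scaling lowers the rde-4 co-IPs relative to their inputs, so genes chosen as lower had to stay lower.

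The lowest value was at hmg-12, which encodes a high mobility group protein (chromosome II, 11916513 to 11917643, plus strand). It had 5.43 and 6.95 RPM in the rde-4 co-IPs against 26.5 and 28.2 RPM in the rde-4 inputs, a log2 difference of -1.99 ± 0.19 (SE, limma adjusted p = 2.3e-07). Its wild-type co-IPs held 27.1 and 25.2 RPM and its wild-type inputs 24.6 and 28.1 RPM, so co-IP and input overlapped there. The gene lies opposite to lin-29. F55A11.13, annotated as a non-coding RNA gene (chromosome V, 11782907 to 11783052, minus strand), had 11.7 and 9.98 RPM in the rde-4 co-IPs and 31.3 and 37.6 RPM in the rde-4 inputs, and it lies opposite to F55A11.6 and F55A11.10. The gene hil-4, which encodes a linker histone variant, had 2.89 and 6.35 RPM against 12.4 and 11.3 RPM. Of the 27 genes, 8 (29.6%) overlap an annotated gene on the other strand, as do 28.1% of all genes tested.

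Another pair of the lowest 5 encode small RNA factors of the germ line. The gene deps-1, for a P granule component, had 3.27 and 1.44 RPM in the rde-4 co-IPs and 8.14 and 7.82 RPM in the rde-4 inputs (log2 -1.48 ± 0.25, SE, limma adjusted p = 5.6e-05). Its wild-type co-IPs held 129 and 148 RPM, above the wild-type inputs at 20.3 and 26.02 RPM. The gene prg-1, for the Piwi Argonaute that binds piRNAs, had 7.24 and 11.3 RPM in the rde-4 co-IPs against 24.3 and 25.02 RPM in the rde-4 inputs (log2 -1.35 ± 0.21, SE, limma adjusted p = 3.0e-05). Its wild-type co-IPs, at 67.0 and 92.5 RPM, again lay above the inputs, at 30.5 and 31.4 RPM. Both genes thus lay above the input in the wild type and below it in rde-4, and each overlaps an annotated gene on the other strand (Y65B4BL.7 at deps-1, D2030.12 at prg-1).

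The list of small RNA pathway genes has 11 members, of which 8 passed the minimum. All 8 were higher in the wild-type co-IPs, as were 99.5% of all genes tested. In the mutant 4 were higher and 4 lower, against 87.4% and 2.45% of all genes tested, and the median was -0.13 against 1.59 over all genes tested. The 4 lower genes were deps-1, prg-1, glh-4 (a Vasa-like helicase of P granules) and hrde-1 (the nuclear Argonaute of heritable silencing). The gene hrde-1 had 7.49 and 8.65 RPM in the rde-4 co-IPs against 16.6 and 16.7 RPM in the inputs. The 4 higher genes were csr-1, pgl-3 (a P granule protein), alg-4 and wago-10. The gene csr-1, for the Argonaute of germline-expressed genes, had 30.9 and 35.6 RPM in the rde-4 co-IPs against 15.5 and 17.3 RPM in the inputs, and kept 22.1% of its wild-type co-IP level. At equal totals 6 of the 8 passed the minimum and all 6 were lower than the pool in rde-4, against 109 of 489 genes tested. The 4 genes already lower had to stay lower under this scaling, and csr-1 and pgl-3 joined them. The alg-3 gene itself, under the minimum, had 0.60 and 2.68 RPM in the rde-4 co-IPs and 10.5 and 12.2 RPM in the wild-type co-IPs.

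Most members of the lower set had a 22G-RNA class that the comparison did not use. Of the 27, 21 (77.8%) also have a row in the CSR class of 22G-RNAs in the authors' larval table, as do 67 (59.8%) of the 112 genes called neither way, 125 (13.0%) of the 962 called higher and 213 (19.3%) of the 1101 tested. Their 22G-RNAs in N2 larvae, from the rows the authors named for ALG targets, had a median of 36.7 RPM, against 4.49 RPM over all genes tested. Members of the 21, named after their values were seen, include copb-2 (coatomer), pas-7 and pbs-2 (proteasome), plk-1 and bub-1 (mitosis), scc-1 (cohesin) and rab-11.1 (vesicle traffic). In rde-4, the 213 genes of the CSR class had 125 higher and 21 lower and a median of 0.81 on the log2 scale. The other 888 genes had 837 higher and 6 lower and a median of 1.76. The wild-type medians were 2.72 and 3.02. At equal totals 489 of these 1101 genes passed the minimum. Among them the CSR class had 4 higher and 72 lower of 95, and the other genes had 215 higher and 37 lower of 394.

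Input level moved with class, since the rde-4 input median was 2.66 RPM for the CSR class and 1.33 RPM for the other genes. Among the 107 genes with a rde-4 input mean of at least 5 RPM, a limit chosen after the values were seen, the CSR class had 18 higher and 16 lower of 55, with a median of 0.09. The others had 46 higher and 6 lower of 52, with a median of 2.40. The part of input level and 22G-RNA level in this difference between classes was not tested.

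**Figure D4:**
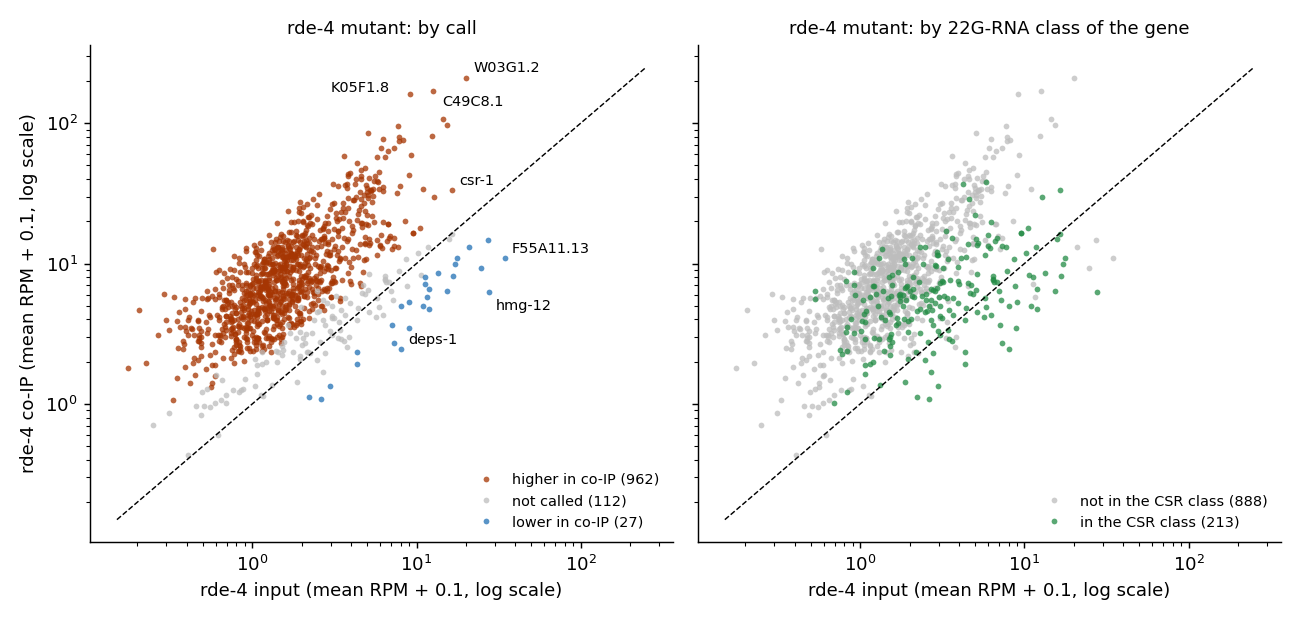
Mean 26G-RNA level in the rde-4 inputs (x axis) and rde-4 co-IPs (y axis), each as RPM + 0.1 on a log scale, for 1101 genes (n = 2 per group), with a dashed line at equal levels. On the left, 962 genes were called higher, 27 lower and 112 neither; on the right, the 213 genes of the CSR class hold 21 of the 27 lower genes and the other 888 hold 6.

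The difference in enrichment between strains was tested as an interaction. Enrichment was lower in rde-4 at 906 of 1101 genes (82.3%) and higher at 0 by limma, with 920 at an unadjusted p under 0.05 and a median of -1.35 on the log2 scale. The size of this count rests on the pseudocount, because rde-4 inputs are low: it was 462 with 0.1 RPM added in place of 1 RPM. With no pseudocount, the ratio of co-IP to input means was lower in rde-4 at 960 genes (87.2%), with a median of 4.99 against 8.53 in the wild type. All these counts cover genes that met the minimum of 10 RPM mainly through the wild-type co-IPs, a choice that favoured a lower enrichment in rde-4. At equal totals 101 genes had a higher and 66 a lower enrichment in rde-4, and the median was 0.29.

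The largest differences were at deps-1, rpt-2 (a proteasome ATPase), Y44A6D.5, rab-11.1 and nuo-5 (a subunit of respiratory complex I). The gene rpt-2 had 0.86 and 3.02 RPM in the rde-4 co-IPs and 2.80 and 1.93 RPM in the rde-4 inputs, and these overlapped. Its wild-type co-IPs held 58.5 and 58.2 RPM against inputs of 3.74 and 4.97 RPM, which gave a difference in log2 enrichment of -3.77 ± 0.46 (SE, limma adjusted p = 1.9e-05). For nuo-5 the rde-4 co-IPs, at 2.84 and 1.67 RPM, also overlapped the rde-4 inputs, at 1.84 and 2.36 RPM. The values of rpt-2, Y44A6D.5, rab-11.1 and nuo-5 in rde-4 were near 3 RPM or below, so their differences rest mainly on the wild type.

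Sperm genes, the textbook targets of ALG-3, were compared with the 87.4% of all genes tested that were called higher in rde-4. Of 22 genes for major sperm proteins, the cytoskeletal proteins of nematode sperm, 20 passed the minimum, 13 were higher in the rde-4 co-IPs and 0 lower. Their median was 0.86 on the log2 scale, under the 1.59 of all genes tested, as their median in the wild type (1.59) was under 2.96. At msp-81 the rde-4 co-IPs held 14.3 and 14.8 RPM and the rde-4 inputs 6.40 and 4.83 RPM. Reads of this family can match several near-identical copies, so its members are not independent. At equal totals 5 of them passed the minimum, and 0 were higher and 3 lower than the pool.

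Of 42 other named sperm genes, 33 passed the minimum, 29 were higher in the mutant co-IPs and 0 lower, and the median was 1.58, near the share of 87.4% and the median of 1.59 over all genes tested. At equal totals 10 passed the minimum, with 4 higher and 3 lower than the pool. The gene ssp-16, for a small protein with a major sperm protein domain, had the highest wild-type input level of any gene, 185 and 191 RPM. Its rde-4 inputs held 6.69 and 6.43 RPM and its rde-4 co-IPs 15.9 and 22.2 RPM, so 3.55% of the wild-type co-IP level was left. The gene spe-10, for a palmitoyltransferase needed in sperm formation, had 13.3 and 14.9 RPM in the rde-4 co-IPs against 1.18 and 1.79 RPM in the inputs. The genes spe-46 and spe-19 had log2 enrichments of 2.56 and 2.42.

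In the remaining lists the shares were again compared with 87.4% higher and 2.45% lower over all genes tested. Of 23 kinase and phosphatase genes, 22 passed the minimum, and 17 were higher and 1 (plk-1) lower in the mutant, at a median of 1.53; at equal totals 8 passed, with 4 higher and 3 lower. The gene kin-35 had 9.91 and 15.2 RPM in the rde-4 co-IPs against 1.62 and 1.56 RPM in the inputs, while kin-26 kept 1.53% of its wild-type co-IP level. Of 6 tubulin and actin genes, 4 were higher and 0 lower, at a median of 0.87; at equal totals 4 passed, with 0 higher and 3 lower. The gene tbb-1 was not called, with 9.82 and 11.7 RPM in the rde-4 co-IPs and 7.21 and 9.87 RPM in the inputs. Of 4 ribosomal protein genes 2 passed the minimum, and rps-18 was higher in rde-4 (8.53 and 10.4 RPM against 3.48 and 2.07 RPM). The histone gene his-70 and the oocyte gene oma-1 were higher as well, with log2 enrichments of 1.79 and 1.03. By chromosome, the median share of wild-type co-IP level left was between 6.52% on II and 7.48% on I.

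Untagged larvae gave the same genes in other libraries, which were treated with RppH, an enzyme that opens 5′ triphosphates for cloning. Rows there carry the authors' ALG 26G class without the antisense mark, so the counting may differ, and the tables were set side by side without a test between them. Summed 26G-RNA was 8937.4 RPM in N2 and 477.91 RPM in rde-4, or 5.35%. Of 82 26G-RNA rows that passed the minimum of 10 RPM in larvae, 82 were lower in rde-4 and 0 higher by limma. Without N2 replicate 3, 53 passed the minimum and 53 were lower. Among the genes tested in the co-IP, the highest mean in rde-4 larvae was 8.65 RPM. Their rows reached the minimum only through N2, so a fall was built into them. Over all 4482 rows of the larval table that were tested, 34.6% were called and 6.74% were lower.

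In untagged larvae W03G1.2 had 8.96, 8.14 and 9.73 RPM in N2 and 5.73, 6.10 and 4.96 RPM in rde-4, or 62.6%, which ranked 1 among the 1085 genes tested in the co-IP with at least 1 RPM in N2 larvae. The median of those genes was 4.20%. C04G2.10, under that limit with 0.27, 0.15 and 0.32 RPM in N2 larvae, had 0.31, 0.41 and 0.23 RPM in rde-4 larvae. The larval groups of W03G1.2 did not overlap, in contrast to its co-IPs (log2 -0.59, limma adjusted p = 0.0233 with no minimum level). The gene sulp-6 had the highest 26G-RNA level of all genes in rde-4 larvae, with 9.40, 10.3 and 6.25 RPM against 25.97, 22.7 and 28.2 RPM in N2. C01G5.3 had 2.53, 2.54 and 2.49 RPM in rde-4 larvae against 6.61, 6.58 and 6.18 RPM in N2, or 39.0%.

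Of the 12 genes that led the rde-4 co-IPs, 7 were among the 12 that led in rde-4 larvae. Of the 12 genes with at least 25% left in the co-IP and 1 RPM in N2 larvae, 11 kept more than the larval median, with 4.09% to 62.6% left and a median of 18.6%. Across 1100 genes, the log2 change of the co-IP and that of larval 26G-RNA had a Pearson r of 0.62 and a Spearman rho of 0.57, as a description over genes, which are not independent replicates. The 26 genes of the lower set with a larval 26G-RNA row were all under 0.35 RPM in rde-4 larvae, with a median of 0.097 RPM. The median over all genes tested was 0.227 RPM, so a larval level under 0.35 RPM was not particular to the lower set. In the tagged strain the rde-4 inputs had a median of 11.2 RPM over all 27, against 1.46 RPM over all genes tested. For hmg-12 the larval level was 0.05, 0 and 0.14 RPM in rde-4 and 1.07, 1.41 and 1.10 RPM in N2, against 26.5 and 28.2 RPM in the tagged rde-4 inputs.

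**Figure D5:**
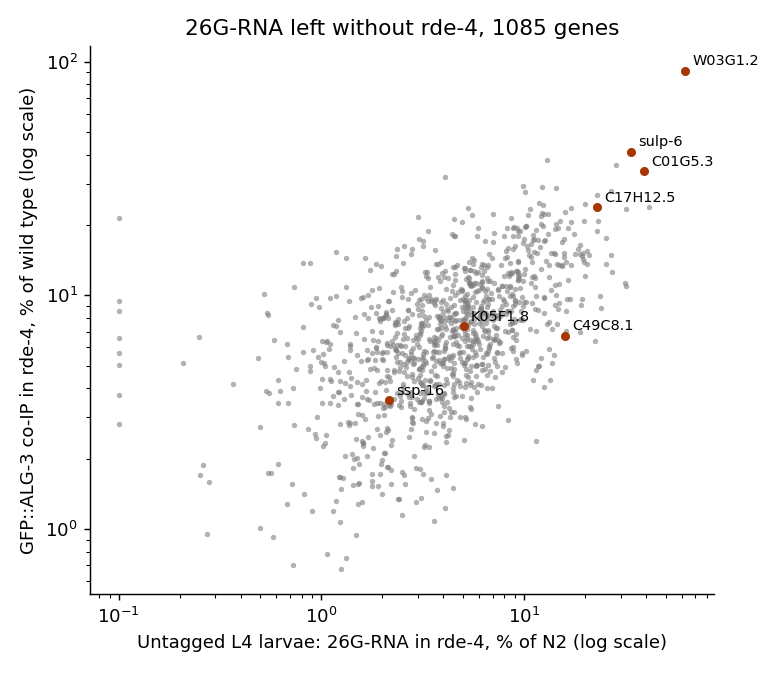
Share of 26G-RNA left in rde-4, in untagged L4 larvae (x axis, % of N2, n = 3 per group) and in the GFP::ALG-3 co-IP (y axis, % of wild type, n = 2 per group), on log scales, for 1085 genes with at least 1 RPM in N2 larvae; 8 genes under 0.1% in larvae are drawn at the left edge. W03G1.2, sulp-6 and C01G5.3 lie at the upper right, with 91.4%, 41.2% and 34.0% left in the co-IP.

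Few of the secondary 22G-RNAs of the same genes were lower where the level allowed a test. The median 22G-RNA level in N2 larvae was 4.49 RPM over the genes tested in the co-IP, so most rows fell under the minimum of 10 RPM. Of 255 ALG target 22G-RNA rows that passed the minimum in larvae, 100 were higher without rde-4 and 9 lower, at a median of 0.21 on the log2 scale, against 27.8% higher and 6.74% lower over all rows tested. For W03G1.2, 22G-RNAs were 5.08 ± 0.408 RPM in N2 and 10.7 ± 1.25 RPM in rde-4 (SD, n = 3; limma adjusted p = 0.0048 with no minimum level). C01G5.3 had 4.26 ± 0.48 and 9.08 ± 0.442 RPM, and sulp-6 had 14.4 ± 1.25 and 25.4 ± 0.96 RPM (SD, n = 3). At ssp-16, where 3.55% of the co-IP level was left, 22G-RNAs were 22.6 ± 0.565 RPM in N2 and 12.4 ± 0.562 RPM in rde-4 (SD, n = 3). W03G1.2 and C01G5.3 were under the larval minimum, and at some other named genes under it the level fell. ZK930.4, with 1.73% of the co-IP level left, had 5.01 ± 0.85 RPM in N2 and 2.07 ± 0.144 RPM in rde-4. F59A6.2, with 1.07% left, had 5.01 ± 0.343 and 1.11 ± 0.304 RPM (limma adjusted p = 0.0094 and 0.0023 with no minimum level).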

How the data were processed

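Small RNAs were sequenced from GFP::ALG-3 co-IPs and inputs (2 libraries per group) and from untagged L4 larvae (3 per group). The deposited values are RPM per gene and class, made by the authors with tinyRNA, per the labels; its version, genome build and annotation are not given in the sources used here. The unit was read from the values. One read was worth 0.0358 to 0.14 RPM, which makes 63.2% to 77.1% of values under 4 RPM whole (tolerance 0.0051 RPM; 7.28% to 28.5% by chance), too few for a count test, and 3 reads correspond to 0.107 to 0.42 RPM (counting error only). All libraries of a table entered 1 limma fit (limma 3.58.1, R 4.3.3) of log2(RPM + 1) values, with a variance trend, restricted to genes whose mean reached 10 RPM. Calls used a Benjamini-Hochberg adjusted p under 0.05. Changes are understated at low levels. Positions come from the WBcel235 annotation by gene identifier (1386 of 1386 matched).

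Named genes are the 12 highest rde-4 co-IP levels, the 8 largest and 5 lowest enrichments in rde-4, the 5 highest wild-type co-IP levels, the 5 largest differences in enrichment in each direction (0 were called higher in rde-4, so 5 are named), the 5 smallest and 5 largest falls among the 100 highest wild-type co-IP levels, up to 4 members per list, and alg-3 and oma-1. F22B3.8, the genes with at least 25% left, and the members of the lower set named outside this rule, were chosen after their values were seen. The members and lists were chosen with earlier results of these data known. The script was tested on simulated data. Alternatives were the pseudocount, the minimum level, equal totals, a replicate block, the variance trend, the rde-4 libraries alone, and leaving out each library. Values of 10 genes are identical to those of another gene.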

Additional observations from a re-analysis of the deposited data

Results flagged for a closer look

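The enrichment over input differed between rde-4 and the wild type by the interaction test at 906 genes, all lower in rde-4, and this count was 462 with a pseudocount of 0.1 RPM. Most genes met the minimum level through the wild-type co-IPs, which favoured a lower enrichment in rde-4. The genes named for the largest differences passed the same test: deps-1 at -4.02, rpt-2 at -3.77, Y44A6D.5 at -3.74, rab-11.1 at -3.54 and nuo-5 at -3.47 on the log2 scale.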

How the results depend on the processing

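At equal totals, co-IP against input in rde-4 gave 336 calls (219 higher, 117 lower), the wild type 206 (88, 118), the difference in enrichment 167 (101, 66), co-IP against co-IP 274 (133, 141) and input against input 331 (111, 220). This follows from the scaling, which sets the loss of the whole pool to 0, and F35E2.5 (1.06), C17H12.5 (1.70), ptp-5.1 (1.18), C15H7.3 (1.13) and M04G7.2 (1.06) then lay above the pool between co-IPs. With the minimum or the fit over the 4 rde-4 libraries alone, 162 genes were tested and 158 called (148 higher, 10 lower). That minimum was met mainly through the rde-4 co-IPs, which favoured higher calls. With no minimum, 9 genes were lower in the wild-type co-IP and 1309 larval rows were lower in rde-4. A pseudocount of 0.1 RPM, added after the data were seen, left 462 calls of the difference in enrichment. Leaving out each library, with the lone sample assumed to vary like the other groups, gave ranges that include changes in the number of genes tested. In rde-4 there were 867 to 1013 calls (844 to 982 higher, 18 to 36 lower), with 18 and 19 lower without rde-4 input replicate 1 or 2. In the wild type there were 939 to 1129 calls (937 to 1127 higher, 2 lower), for the difference 656 to 947 (0 to 2 higher, 655 to 947 lower), and between co-IPs 942 to 1129 (0 to 1 higher, 941 to 1129 lower). Inputs gave 922 to 1110 calls, larval 26G-RNA rows 53 to 113 (53 without N2 replicate 3), and the summed ratio was 4.11 to 4.22. Replicate numbers did not pair libraries (correlations of deviations -0.123 to 0.0279, and 0.14, -0.0598 and 0.066 in larvae). With a replicate block, calls were 986 in rde-4, 1098 in the wild type, 896 for the difference, 1099 between co-IPs (1 higher), 1074 between inputs and 82 in larvae. With crossed numbers in the rde-4 input, 1075 genes were called between inputs. For single genes, 525 values were recomputed in the comparison that named the gene, and 520 kept direction and call. The low reads per gene in the rde-4 inputs, 22 and 27 at the median, limit the enrichment of low genes most.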
